A study of Mus musculus with 23 samples.

Results

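The 76 genes described here encode proteins of the cytosolic ribosome, 47 of the large and 29 of the small subunit, and were followed through the RNA of cultured mouse CD4+ T cells. They were chosen from the 53379 gene IDs of a count table by symbol: protein-coding genes named Rpl or Rps plus a number, with an optional suffix of the letters a, x, y or l. Pseudogenes, the stalk genes Rplp0, Rplp1 and Rplp2, the ubiquitin fusion gene Rps27a and the S6 kinase genes were outside the rule, as was Rps4l, annotated as a pseudogene, and the rule used no measured value. T cells that were CD45+CD3+CD4+CD8- had been sorted from spleens of C57BL/6 background mice labelled wild type or Gpr109a-/- (Gpr109a is the gene Hcar2, a receptor for niacin). All cultures held 30 IU/ml of IL-2 for 72 h. Cultures called unstimulated had IL-2 with no antibody, and stimulated ones also had antibodies to CD3 and CD28. These engage the T cell receptor and a costimulatory receptor. Within each state, cells were grown without or with 5 mM niacin. The labels thus gave 8 groups of 3 libraries, except that the unstimulated knockout-labelled group with niacin had 2 (numbers 2 and 3). The labels gave neither the age or sex of the animals nor whether libraries of a group came from different animals; a p-value here therefore reflects only how much libraries vary.

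Most ribosomal proteins occur once per ribosome, and surplus free protein is degraded. Their messages are among the most abundant of growing cells, and in vertebrates they carry a terminal oligopyrimidine (TOP) tract: the transcript starts at a C followed by a run of pyrimidines, through which mTOR signalling and Larp1 set their translation. Resting T cells are small and make little protein, and cells that receive signals through the T cell receptor and CD28 enlarge, raise ribosome production and divide.

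The libraries held 13205565 to 30090018 counted read pairs (median 24007159), and 16882 genes were tested, among them 74 of the 76 members. Values below are CPM, the counts of a gene relative to the library total, scaled by TMM factors, or log2 fold changes from edgeR. Tests were quasi-likelihood F tests with Benjamini-Hochberg adjustment over all genes tested, and a gene was called at an adjusted p under 0.05. Hcar2 went against the genotype labels: its counts were 0 to 32 in knockout-labelled libraries and 0 or 1 in wild-type-labelled ones, so the words knockout-labelled and wild-type-labelled are used throughout. Of the unstimulated knockout-labelled libraries, number 3 differed from all others. It was the shallowest and held 1.11% of its counts in the members, against 1.42% to 1.6% in the other unstimulated libraries. Its column header also lacked the letters jax, which the headers of all other libraries carried and whose meaning the labels do not give. In the stimulated wild-type-labelled group with niacin, mitochondrial genes took 0.187% and 0.217% of counts in libraries 1 and 2, against 0.374% to 0.605% in the other stimulated libraries. The summed level of 7 T cell genes (Cd3d, Cd3e, Cd3g, Cd4, Trac, Cd5 and Ptprc) was 3121 to 5269 CPM in unstimulated and 3803 to 4650 CPM in stimulated libraries. Markers of B cells, myeloid cells and erythroid cells or platelets summed to at most 8.62, 7.53 and 5.82 CPM in any library, and Cd8a and Cd8b1 to 7.88 to 29.2 CPM. The 5 NK and gamma-delta T cell markers summed to 20.4 to 44.4 CPM in unstimulated and 76.5 to 114 CPM in stimulated libraries. Eomes, also a transcription factor of activated T cells, made up most of this sum in stimulated libraries (72.2 to 108 CPM, against 3.54 to 25), while Ncr1, Klrb1c and Trdc reached at most 0.251, 0.742 and 7.87 CPM there and Klra8 was at 0 in all 23. The part of other cell types in the results was not tested, and in bulk RNA fewer cells with a message and less message per cell cannot be told apart.

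Ribosomal protein genes are hard to count because mammalian genomes hold many processed copies of them. By sequence, 978 annotated pseudogenes and retrogenes matched 72 of the 76 members at 90% identity or more, and 873 of them had counts. Together these copies took 0.0204% to 0.032% of a library's counts, against the 1.11% to 2.94% of the members. In the main transcript of a member, a median of 56.5% of all 50-base windows, the read length, also occurred in a transcript of another gene. That share was 2.96% for Rps3 and 98.7% for Rps27. In 7 members more than 30% of exon bases also lay in exons of another gene: Rpl24 (71.5%), Rpl35, Rpl36al, Rpl13a (59.3%), Rpl23a, Rpl5 and Rpl30. The sources used here do not give how reads that fit several places or genes were counted, and levels of members are uncertain for that reason.

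Levels differed widely between members when expressed per kilobase of annotated exon. Over the 8 group means, Rpl4, whose protein lines the exit tunnel of the large subunit, was highest of the 47 large-subunit members at 802 CPM per kb. Rpl8 followed at 772 and Rpl32 at 711 CPM per kb, against a median of 71.4 CPM per kb for the large subunit. The lowest large-subunit members were Rpl10l, with no count in any library, Rpl3l at 0.0454 and Rpl39l at 0.34 CPM per kb. All 3 are tissue-restricted paralogues: Rpl10l and Rpl39l are known from testis and Rpl3l from heart and skeletal muscle. Among the 29 small-subunit members, Rps14, at 459, and Rps2, at 408 CPM per kb, were among the highest, with a median of 124 CPM per kb. Lowest were Rps28, Rps24 and Rps15a at 26.4, 25.9 and 20 CPM per kb. Annotated exons of Rps24 and Rps15a cover 6256 and 6270 bases, while their coding parts have 399 and 390 bases, which lowers a level per kilobase. Exons also exceed the main transcript in Rpl4 (2007 against 1538 bases) and Rpl32 (963 against 517). The order of members therefore depends on the length used.

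**Figure D1:**
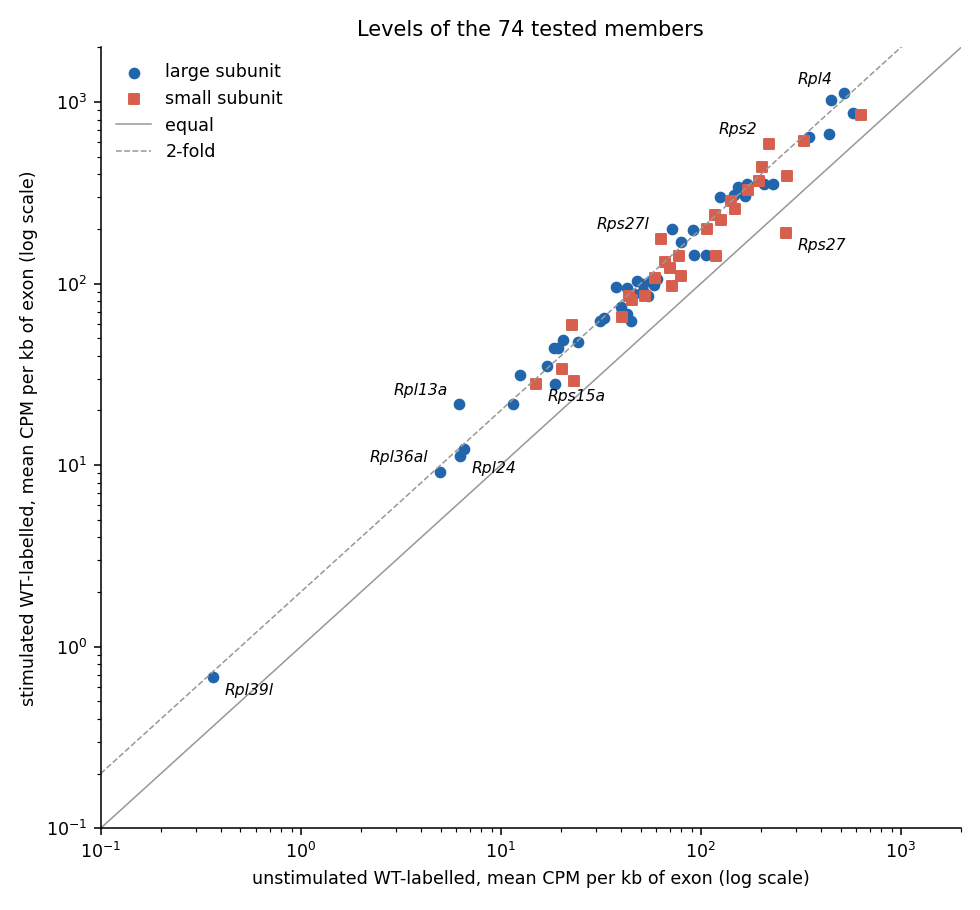
Mean CPM per kilobase of exon of each of the 74 tested members in unstimulated (x axis) and stimulated (y axis) wild-type-labelled libraries without niacin, n = 3 each, both axes on a log scale. Circles are large-subunit and squares small-subunit genes. The solid line marks equal levels and the dashed line a 2-fold rise; Rps27 lies under the solid line.

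Summed over each subunit, the members took a larger share of counts in every stimulated library (2.20% to 2.94%) than in any unstimulated one (1.11% to 1.6%). Large-subunit members held 0.836% ± 0.0262 of counts (SD, n = 3) in unstimulated and 1.42% ± 0.109 in stimulated wild-type-labelled cells. Small-subunit members held 0.671% ± 0.0175 and 1.08% ± 0.0941. With niacin, stimulated wild-type-labelled cells had the highest shares of the 8 groups, 1.62% ± 0.0718 and 1.21% ± 0.0601. In that group libraries 1 and 2, those with few mitochondrial counts, held 2.855% and 2.937% in all members. Library 3 held 2.681%, near the 2.648% of library 1 of stimulated wild-type-labelled cells without niacin. Stimulated knockout-labelled cells held 1.3% ± 0.0534 and 0.981% ± 0.0558 without niacin and 1.37% ± 0.0978 and 1.05% ± 0.0943 with it. No test was made on these sums.

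The ratio of large-subunit to small-subunit counts was 1.25 ± 0.00723 (SD, n = 3) in unstimulated wild-type-labelled cells, 1.24 ± 0.0168 with niacin, and 1.23 ± 0.00707 (n = 2) in unstimulated knockout-labelled cells with niacin. In unstimulated knockout-labelled cells without niacin it was 1.27, 1.22 and 1.48 in libraries 1, 2 and 3, the last being the shallow library that stands apart. In stimulated cells the ratio was 1.32 ± 0.0273 and, with niacin, 1.34 ± 0.018 for the wild-type label, and 1.32 ± 0.0199 and 1.31 ± 0.026 for the knockout label. Leaving out that 1 library, the 10 unstimulated libraries lay between 1.22 and 1.27 and the 12 stimulated ones between 1.28 and 1.36, without overlap. The same order held without the 5 highest members by CPM, Rpl4 and Rps3 among them. Leaving out library 3 again, the ratios were 1.05 to 1.10 against 1.19 to 1.25. On this measure library 3, at 1.155, also lay below every stimulated library.

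**Figure D2:**
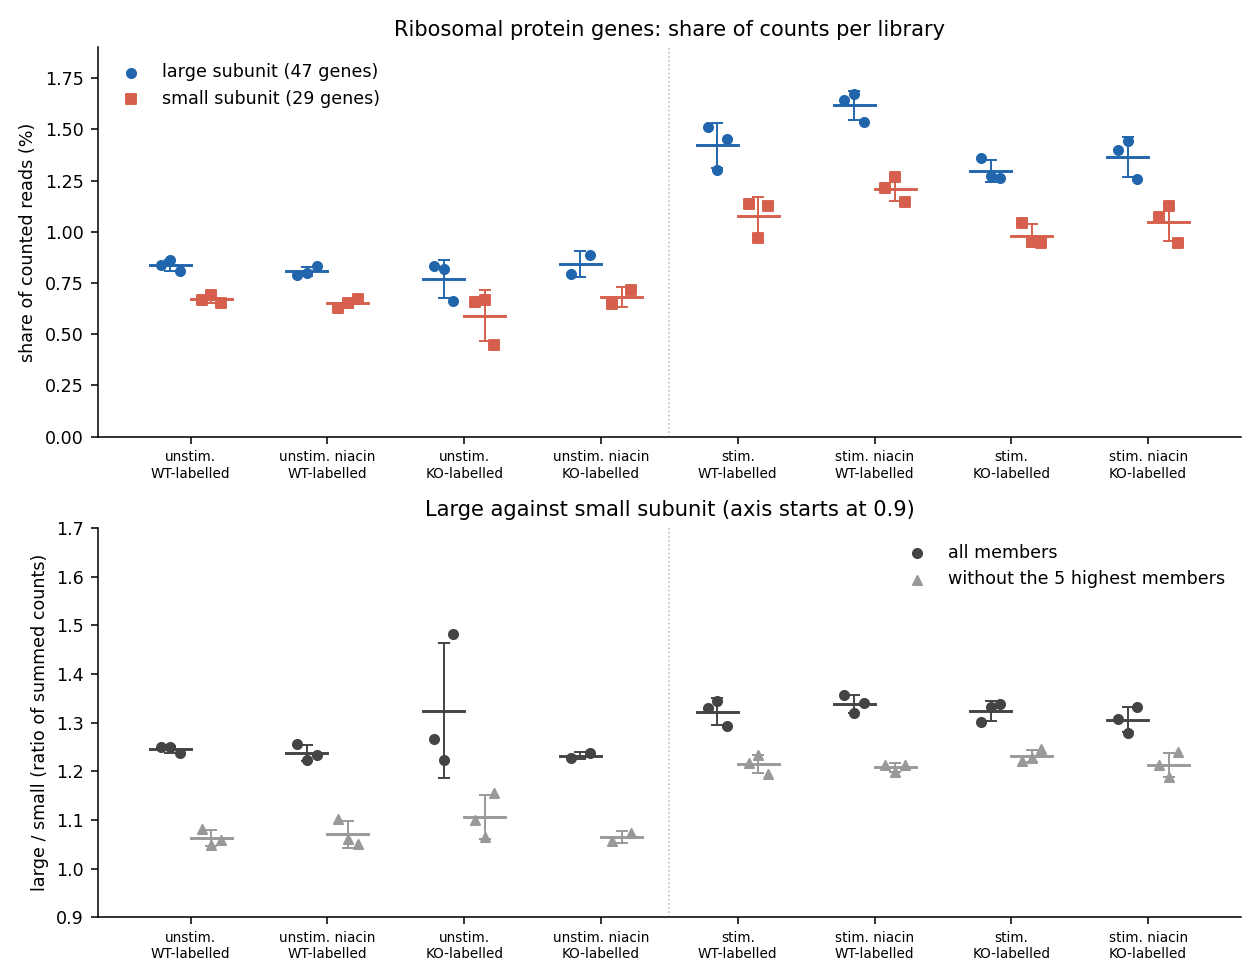
Upper plot: percent of each library's counts in the 47 large-subunit (circles) and 29 small-subunit (squares) genes; lower plot: the ratio of both sums with all members (circles) and without the 5 highest (triangles), on an axis that starts at 0.9. Points are libraries in the 8 groups on the x axis, lines are means and bars are SD; stimulated libraries lie at 2.20% to 2.94% in all and at ratios of 1.28 to 1.36.

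The messages of nearly all ribosomal protein genes were higher after stimulation. Of 74 tested members, 67 were called higher on stimulation in cells with the wild-type label, where 23.4% of all genes tested were called higher, and 0 were called lower, where 21.7% of all genes were. In knockout-labelled cells 63 members were called higher (25.2% of all genes) and 0 lower (27.5%). With niacin, 71 were called higher in wild-type-labelled cells (26.0% of all genes) and 0 lower (26.6%), and 69 in knockout-labelled cells (24.5%) and 0 lower (25.3%). For the counts of 0 lower, edgeR gave 0, 0, 0 and 1 member lower at an unadjusted p under 0.05; DESeq2 called 0, 0, 0 and 1, and limma voom 1, 1, 0 and 1, each time Rps27. The median member rose by 0.90, 0.94, 1.15 and 1.00 on the log2 scale in the order just given, beside medians of -0.07, -0.13, -0.10 and -0.07 for all genes tested. The 4 comparisons share no library.

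Both subunits took part. Large-subunit members were called higher in 42, 39, 43 and 41 of 45 tested, with medians of 0.92, 0.96, 1.17 and 1.11. Small-subunit members were called higher in 25, 24, 28 and 28 of 29, with medians of 0.86, 0.89, 1.06 and 0.89. In all 4 comparisons 60 members were called higher (16.1% of all genes tested were), 37 large and 23 small, and 0 were called lower (13.3%). The quartiles of the members' median change over the 4 comparisons were 0.79 and 1.16 on the log2 scale, or 1.73-fold and 2.23-fold. Across the 74 members, the log2 fold changes of any pair of comparisons had a Pearson r of 0.363 to 0.883 and a Spearman rho of 0.342 to 0.852. These are correlations across genes, which are not independent replicates, and reads shared with copies enter all comparisons alike. The lowest r was between knockout-labelled cells without niacin and wild-type-labelled cells with niacin, the comparisons that hold the 3 libraries standing apart.

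**Figure D3:**
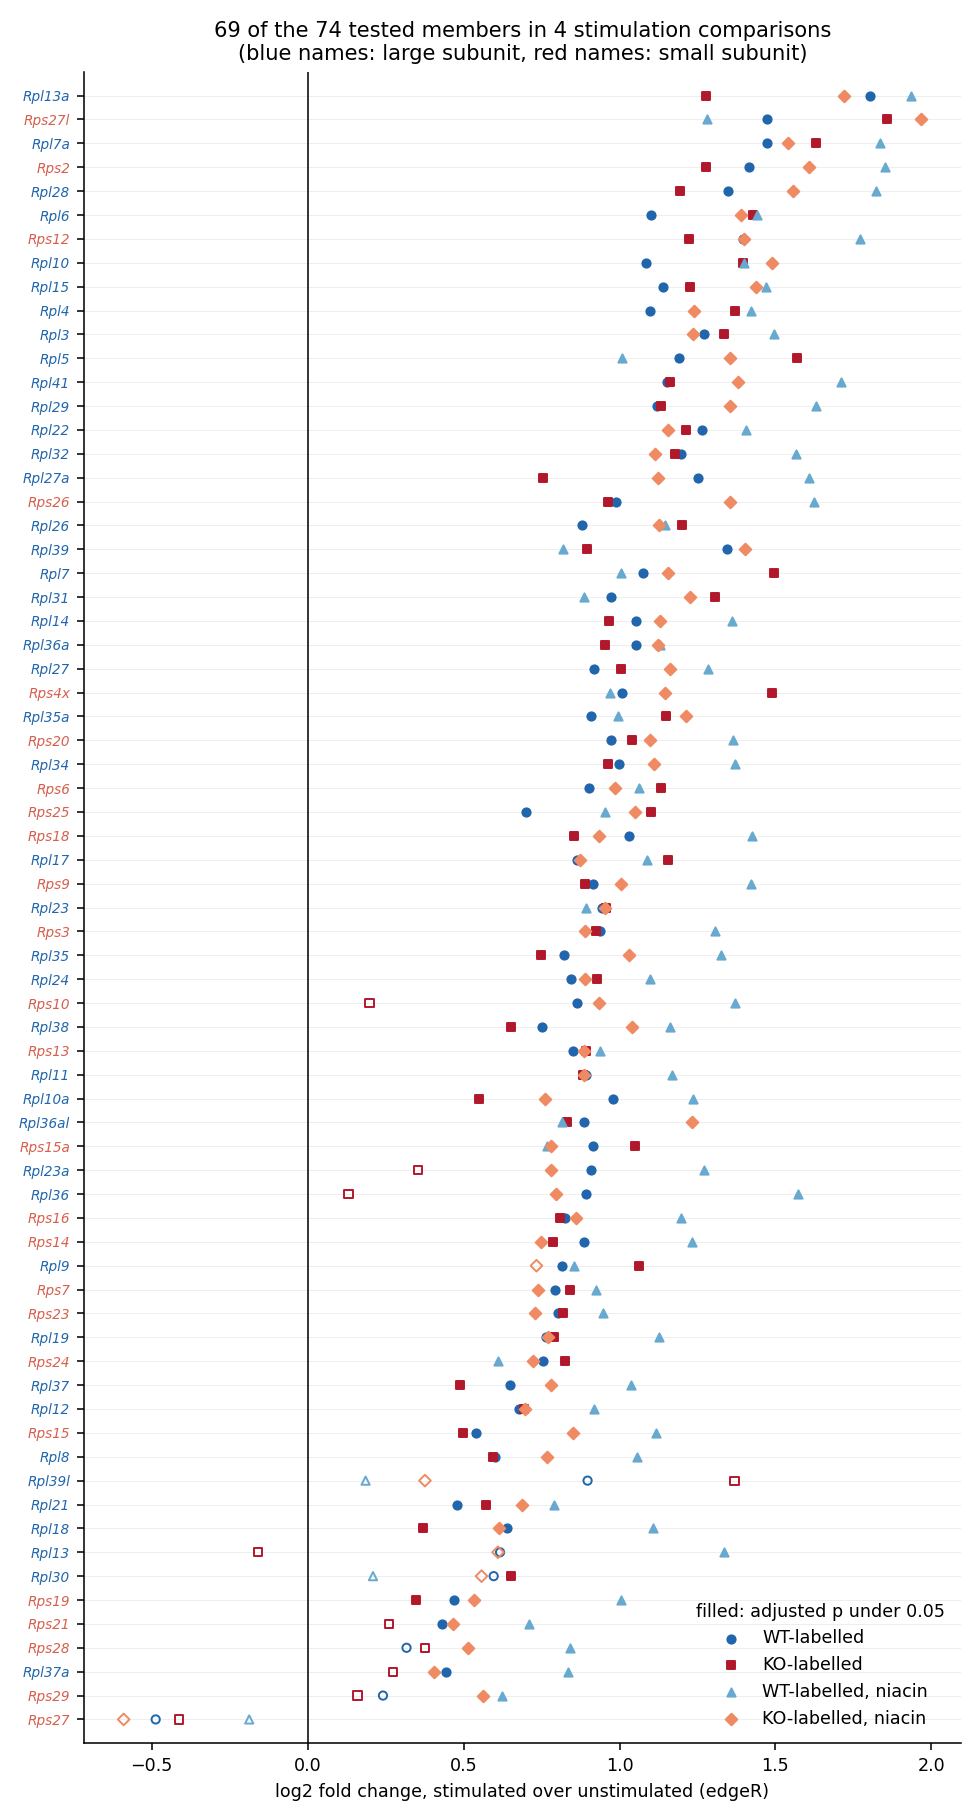
Log2 fold change from edgeR, stimulated over unstimulated, of 69 of the 74 tested members (y axis, ordered by the median) in wild-type-labelled and knockout-labelled cells without and with niacin. Filled symbols have an adjusted p under 0.05, blue names are large-subunit and red names small-subunit genes; Rpl13a and Rps27l have the highest medians and Rps27 is the lone member with a negative value in all 4 comparisons.

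By the median over the 4 comparisons, Rpl13a, Rps27l, Rpl7a, Rps2 and Rpl28 rose most. Rpl13a, known also from a complex that silences translation of inflammatory messages, was at 15, 11 and 13.2 CPM in unstimulated and 49.8, 40.0 and 47.4 CPM in stimulated wild-type-labelled libraries. With niacin it was at 16.2, 14.3 and 15.6 against 58.9, 64 and 53.2 CPM. In knockout-labelled libraries it was at 14.7, 14.3 and 23 against 45, 39.5 and 40.7 CPM, and with niacin at 13.6 and 15.5 against 46.9, 48.2 and 48.4 CPM. Every stimulated library lay above every unstimulated one, and library 3 of the unstimulated knockout-labelled group was the highest of the unstimulated. The log2 fold changes were 1.80, 1.28, 1.93 and 1.72 (SE 0.17 to 0.20, largest adjusted p 4.48e-06). As given above, 59.3% of its exon bases also lie in exons of other genes.

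Rpl7a, a large-subunit protein encoded on chromosome 2, had 142, 124 and 118 CPM in unstimulated and 374, 328 and 366 CPM in stimulated wild-type-labelled libraries, and 134, 114 and 67 against 342, 319 and 319 CPM in knockout-labelled ones. With niacin the values were 127, 113 and 108 against 423, 451 and 368 CPM and 108 and 122 against 337, 339 and 326 CPM. The states did not overlap, and the log2 fold changes were 1.47, 1.63, 1.84 and 1.54 (SE 0.17 to 0.20, largest adjusted p 4.15e-06). Rps2, a small-subunit protein at the entry of the mRNA channel, had 429, 427 and 352 CPM against 1152, 996 and 1071 CPM with the wild-type label, and 382, 344 and 328 against 1362, 1357 and 1079 CPM with niacin. With the knockout label it had 393, 347 and 559 against 1100, 988 and 1061 CPM, and 329 and 363 against 1069, 1066 and 1027 CPM with niacin. Again all stimulated values lay above all unstimulated ones, with log2 fold changes of 1.41, 1.28, 1.85 and 1.61 (SE 0.15 to 0.17, largest adjusted p 7.07e-07). Rpl28 and Rps12 rose by 1.35, 1.19, 1.82 and 1.56 and by 1.40, 1.22, 1.77 and 1.40 (largest adjusted p 5.48e-06 and 1.34e-05).

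The 60 members called higher in all 4 comparisons are described here in order of their median log2 change. In the large subunit, 23 rose by a median of 1.76 down to 1.05: Rpl13a, Rpl7a, Rpl28, Rpl6, Rpl10, Rpl15, Rpl4, Rpl3, Rpl5, Rpl41, Rpl29, Rpl22, Rpl32, Rpl27a, Rpl26, Rpl39, Rpl7, Rpl31, Rpl14, Rpl36a, Rpl27, Rpl35a and Rpl34. The other 14 of the large subunit rose by 0.98 down to 0.63: Rpl17, Rpl23, Rpl35, Rpl24, Rpl38, Rpl11, Rpl10a, Rpl36al, Rpl19, Rpl37, Rpl12, Rpl8, Rpl21 and Rpl18. In the small subunit, 10 rose by 1.66 down to 1.00, among them Rps27l, Rps2, Rps12, Rps26, Rps4x, Rps20, Rps6 and Rps25. The other 13 rose by 0.98 down to 0.50, among them Rps18, Rps9, Rps3, Rps13, Rps15a, Rps16, Rps14, Rps7, Rps23, Rps24, Rps15 and Rps19. Another 8 were called higher in 3 of the 4, among them Rpl9, Rpl23a, Rpl36, Rpl37a, Rps10 and Rps21. Rps28 and Rps29 were called in 2, Rpl13 and Rpl30 in 1, and Rps27 and Rpl39l in none. Rpl30 had log2 fold changes of 0.60, 0.65, 0.21 and 0.56 (SE 0.26 to 0.29, adjusted p 0.0668, 0.0411, 0.509 and 0.12). In knockout-labelled cells without niacin the 5 largest rises were those of Rps27l, Rpl7a, Rpl5, Rpl7 and Rps4x; Rpl7 rose by 1.5 and Rps4x, the X-linked gene for a small-subunit protein, by 1.49 there (adjusted p 0.000156 and 0.000794). Library 3 of the unstimulated group was the lowest for Rpl5, Rpl7 and Rps4x, and without it these rose by 1.24, 1.11 and 1.05, less than Rpl13a, Rps2 and Rpl28 (1.53, 1.5 and 1.40).

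TOP-like starts were looked for in the RefSeq promoter table (GRCm38.p6), which matched 58 of the 76 members. A start counted as TOP-like where a C within 3 bases of the annotated start opened a run of 5 or more pyrimidines (C or T), on the gene's own strand only. By this measure 23 of the 58 members (39.7%) had at least 1 TOP-like start, 13 of 36 in the large and 10 of 22 in the small subunit, while 13.5% of all 27025 genes in the table had 1. Counted from the opening C, the tracts were 5 to 18 bases long, with a median of 8. The median stimulation change was 0.982 (log2) in the 23 with and 0.93 in the 33 tested members without a TOP-like start, and 0.901 in 18 not matched. The 45 bases around the start (30 before and 15 from the start on) are shown for Rpl13a, Rpl7a and Rpl28, among the strongest risers, for Rps2, a strong riser with no match in this window, and for Rps6, the ribosomal protein phosphorylated downstream of mTOR. Capitals mark the pyrimidine tract counted from a C within 3 bases of the start. Pyrimidines directly before that C are not marked, as in Rpl7a. The tract of Rpl13a runs on past the last base shown.
Rpl13a, chr7:45128731-45128775, minus strand: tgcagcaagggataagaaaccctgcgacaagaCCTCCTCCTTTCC
Rpl7a, chr2:26910777-26910821, plus strand: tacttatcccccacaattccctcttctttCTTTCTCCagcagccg
Rpl28, chr7:4792935-4792979, plus strand: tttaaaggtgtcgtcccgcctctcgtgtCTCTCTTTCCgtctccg
Rps2, chr17:24720033-24720077, plus strand: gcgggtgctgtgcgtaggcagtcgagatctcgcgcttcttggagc
Rps6, chr4:86857353-86857397, minus strand: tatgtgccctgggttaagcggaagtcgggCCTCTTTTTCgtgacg
A tract at the annotated start is a description of these letters; no match says only that the annotated start shows none.

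Other features of the members were set beside the size of the rise. The 76 genes lie on 19 chromosomes, 13 of them on chromosome 7 and 7 on chromosome 17. Across the 74 tested members, Spearman's rho of the median change with coding length was 0.292, with the level per kb -0.04 and with the share of 50-base windows found in other genes 0.098; these are descriptions across genes. The 7 members with more than 30% of exon bases in other genes had a median change of 0.909, and the other 67 of 0.959.

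Among large-subunit proteins with known roles, Rpl3, near the centre where peptide bonds form, had 346 to 407 CPM in 10 unstimulated libraries (218 CPM in library 3 of the knockout-labelled group) and 769 to 1065 CPM in 12 stimulated ones. It rose by 1.27, 1.33, 1.49 and 1.24 on the log2 scale (SE 0.16 to 0.18, largest adjusted p 1.37e-05). Rpl4 had 884 to 1108 CPM (600 in library 3) against 2102 to 2733 CPM, and rose by 1.10, 1.37, 1.42 and 1.24 (largest adjusted p 3.32e-06). Rpl10, which joins the large subunit late in its maturation, had 133 to 177 CPM (104 in library 3) against 316 to 432 CPM, with log2 fold changes of 1.08, 1.39, 1.40 and 1.49 (largest adjusted p 9.6e-06). For these 3 genes the stimulated libraries lay above the unstimulated ones without overlap, and library 3 lay below the rest.

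Rpl5 and Rpl11 form, with the smallest ribosomal RNA, a particle that can bind the p53 inhibitor Mdm2 when ribosome assembly is disturbed. Rpl5 had 70.2 to 79.8 CPM in unstimulated libraries (28.9 in library 3) and 126 to 207 CPM in stimulated ones, with log2 fold changes of 1.19, 1.57, 1.01 and 1.35 (SE 0.23 to 0.27, largest adjusted p 0.00115). Rpl11 had 92 to 120.2 CPM (80.0) against 164 to 224 CPM, and 0.89, 0.88, 1.17 and 0.88 (SE 0.13 to 0.15, largest adjusted p 7.96e-05). Rpl22, which mice need for the development of alpha-beta T cells, rose by 1.27, 1.21, 1.40 and 1.16 (largest adjusted p 4.35e-05), and had 54.8 to 63.7 CPM (35.8 in library 3) against 111 to 160.2 CPM. Rpl41, a very short basic protein of 25 residues by the annotation, rose by 1.15, 1.16, 1.71 and 1.38 (largest adjusted p 9.22e-07). Rpl39, another small protein of the exit tunnel, rose by 1.34, 0.90, 0.82 and 1.40 (largest adjusted p 0.00697). Its stimulated values with the wild-type label and niacin were 25.7, 27.4 and 43.4 CPM, and those without niacin 44.3, 40.6 and 50.6 CPM, so libraries 1 and 2, which stand apart, were the lowest of the 6.

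In the small subunit, Rps3, which lies at the mRNA entry, had 698 to 808 CPM in unstimulated libraries (586 in library 3) and 1228 to 1947 CPM in stimulated ones. Its log2 fold changes were 0.94, 0.92, 1.31 and 0.89 (SE 0.12 to 0.13, largest adjusted p 1.85e-05). Rps6 had 155 to 184 (89.3) against 274 to 348 CPM and rose by 0.90, 1.13, 1.06 and 0.99 (largest adjusted p 0.000195). Rps26, which contacts the mRNA as it leaves the ribosome, rose by 0.99, 0.96, 1.62 and 1.35 (largest adjusted p 2e-05). Rps24 rose by 0.75, 0.83, 0.61 and 0.72 (largest adjusted p 0.00286). Rps19, the gene most often mutated in Diamond-Blackfan anaemia, an inherited failure of red cell production, rose less: by 0.47, 0.35, 1.00 and 0.53 (largest adjusted p 0.0335), with 313 to 417 CPM in unstimulated and 418 to 761 CPM in stimulated libraries. A list held 10 members whose human counterparts are mutated in that disease, among them Rps10, Rps19, Rps24, Rps26, Rpl5, Rpl11 and Rpl35a. Of these, 10, 9, 10 and 10 were called higher, with medians of 0.87, 0.92, 1.01 and 1.02. The uncalled value was Rps10 in knockout-labelled cells. Of all genes tested, 23.4%, 25.2%, 26.0% and 24.5% were called higher. The members as a whole were called at a rate similar to that of this list, as given above.

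The smallest median changes after that of Rps27 belonged to Rps29, Rpl37a, Rps28, Rps21 and Rps19. Rps29, a very small zinc-binding protein, had 75.2, 93.3 and 79.5 CPM in unstimulated and 97.1, 84.7 and 111 CPM in stimulated wild-type-labelled libraries, which overlap, and 76.3, 84.4 and 79.9 against 91.5, 87.2 and 90.1 CPM with the knockout label. With niacin it had 69.1, 76.3 and 84.9 against 132, 118 and 105 CPM and 77.5 and 88.5 against 121, 137 and 109 CPM, without overlap. Its log2 fold changes were 0.24, 0.16, 0.62 and 0.56 (SE 0.14 to 0.15), with adjusted p of 0.153, 0.329, 0.00072 and 0.00511. Rps28 likewise passed the test in both comparisons with niacin and in neither without it, at 0.32, 0.38, 0.84 and 0.52 (adjusted p 0.129, 0.0655, 0.000319 and 0.0295). Whether niacin altered the response of either gene was tested by the interaction, which edgeR did not call for Rps29 (adjusted p 0.661 and 0.718) or Rps28 (0.66 and 0.927) in the wild-type-labelled and knockout-labelled cells. Limma voom called the interaction of Rps28 in wild-type-labelled cells, at 0.71 (adjusted p 0.0286), and no other of these 4.

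In knockout-labelled cells without niacin, 11 members were not called, among them Rpl13, Rpl23a, Rpl36, Rpl37a, Rps10 and Rps21. For several of them the shallow library 3 lay far from libraries 1 and 2. Rpl13 was at 549.5, 529 and 1528 CPM in the unstimulated and 849, 743 and 744 CPM in the stimulated libraries, a log2 fold change of -0.16 (SE 0.27, adjusted p 0.638). Rpl36 was at 133, 131 and 294 against 222, 188 and 199 CPM, and Rps10 at 106, 119.9 and 304 against 214, 198 and 195 CPM. In each, libraries 1 and 2 lay below all 3 stimulated values and library 3 above them. Without library 3, 66 members were called higher (27.2% of all genes) and 1 lower (27.2%). The median rise was 0.88, beside -0.06 for all genes tested.

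Rps27 and Rps27l, a pair of paralogues that encode near-identical zinc-binding proteins of the small subunit, went different ways. Rps27l is also known as a target of p53. Rps27 was at 245, 309 and 282 CPM in unstimulated and 212, 162 and 222 CPM in stimulated wild-type-labelled libraries, and with niacin at 215, 258 and 298 against 204, 237 and 236 CPM. With the knockout label it was at 242, 286 and 95.8 against 179, 149 and 142 CPM, and with niacin at 268 and 283 against 191, 211 and 147 CPM. Leaving library 3 of the unstimulated knockout-labelled group aside, stimulated values lay below unstimulated ones without overlap in 3 of the 4 comparisons, and overlapped in wild-type-labelled cells with niacin. The log2 fold changes were -0.49, -0.41, -0.19 and -0.59 (SE 0.25 to 0.28) and none was called (adjusted p 0.125, 0.179, 0.549 and 0.0874). With library 3 left out of the fit, the values were -0.49, -0.76, -0.19 and -0.59, with adjusted p of 0.0106, 0.000802, 0.29 and 0.00531, so that Rps27 was called lower in 3 of 4.

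Rps27l rose in all 4 comparisons. It was at 54.4, 52.9 and 48.1 CPM in unstimulated and 134, 124 and 174 CPM in stimulated wild-type-labelled libraries, and at 58.5, 45.2 and 44.4 against 112, 116 and 132 CPM with niacin. With the knockout label it was at 56.5, 46.1 and 33 against 158, 167 and 167 CPM, and at 44.1 and 52.3 against 182, 221 and 162 CPM with niacin. All stimulated libraries lay above all unstimulated ones, and the log2 fold changes were 1.47, 1.86, 1.28 and 1.97 (SE 0.18 to 0.21, largest adjusted p 6.58e-06). In stimulated cells with niacin the knockout-labelled values lay above the wild-type-labelled ones without overlap, a difference of 0.65 on the log2 scale that was not called (SE 0.18, adjusted p 0.0624). Expressed per kilobase of exon, the ratio of Rps27 to Rps27l was 3.52, 4.58 and 4.58 in unstimulated and 1.24, 1.02 and 1 in stimulated wild-type-labelled libraries. It was 3.36, 4.87 and 2.27 against 0.886, 0.699 and 0.664 with the knockout label, 2.87, 4.47 and 5.24 against 1.43, 1.6 and 1.4 with the wild-type label and niacin, and 4.75 and 4.23 against 0.818, 0.745 and 0.711 with the knockout label and niacin. Thus Rps27 was the higher of the pair in every unstimulated library. In all 6 stimulated knockout-labelled libraries Rps27l was higher per kilobase of annotated exon. This order depends on the length used: annotated exons of Rps27 and Rps27l cover 1043 and 816 bases, but their main transcripts have 345 and 499. By counts alone, Rps27 was higher in library 1 of the stimulated knockout-labelled groups without and with niacin, at ratios of 1.132 and 1.046. The summed CPM of the pair was 330.3 ± 31.5 in unstimulated and 342 ± 54.4 (SD, n = 3) in stimulated wild-type-labelled cells. With niacin it was 306 ± 34.4 against 345 ± 26.9. With the knockout label it was 253 ± 109 against 321 ± 14.8, and with niacin 324 ± 16.5 (n = 2) against 371 ± 61.2. The mean was higher in stimulated cells in all 4, and the libraries of both states overlapped in each.

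The coding sequences of the pair are shown because they decide whether short reads can tell the genes apart. They come from the GENCODE vM21 transcripts (GRCm38), with the span of the coding exons given, and capitals mark the bases at which they differ.
Rps27, chr3:90212728-90213615, minus strand: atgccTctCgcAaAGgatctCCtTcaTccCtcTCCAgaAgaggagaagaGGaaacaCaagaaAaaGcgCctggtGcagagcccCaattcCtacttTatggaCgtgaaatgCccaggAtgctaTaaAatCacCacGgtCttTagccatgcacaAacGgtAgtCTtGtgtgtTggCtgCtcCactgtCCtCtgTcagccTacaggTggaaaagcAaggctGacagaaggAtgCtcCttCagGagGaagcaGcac
Rps27l, chr9:66946175-66949354, plus strand: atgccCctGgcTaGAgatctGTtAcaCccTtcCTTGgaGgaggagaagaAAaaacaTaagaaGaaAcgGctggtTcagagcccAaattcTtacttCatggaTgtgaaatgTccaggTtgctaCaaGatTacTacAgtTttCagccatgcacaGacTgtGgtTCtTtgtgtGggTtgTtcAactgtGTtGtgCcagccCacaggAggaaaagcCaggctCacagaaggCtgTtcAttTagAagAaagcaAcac
Both have 252 coding bases without the stop codon. They differ at 60 of them (76.2% identity), 53 of these being at the last base of a codon, and the longest identical run has 11 bases. None of the 203 windows of 50 coding bases was identical between them, so an exact read in the coding part belongs to either Rps27 or Rps27l. Reads of Rps27 can instead be shared with its processed copies: 98.7% of its 50-base windows occurred in other genes, against 22.4% for Rps27l. Counted together with its 11 annotated copies, which took 0.87% of the sum, Rps27 gave -0.48, -0.41, -0.18 and -0.59 on the log2 scale in the 4 comparisons. At their annotated starts both had a TOP-like tract, of 9 bases in Rps27 and 5 in Rps27l.
Rps27, chr3:90213634-90213678, minus strand: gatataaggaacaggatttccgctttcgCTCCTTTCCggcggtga
Rps27l, chr9:66946056-66946100, plus strand: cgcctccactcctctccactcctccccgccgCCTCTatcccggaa

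**Figure D4:**
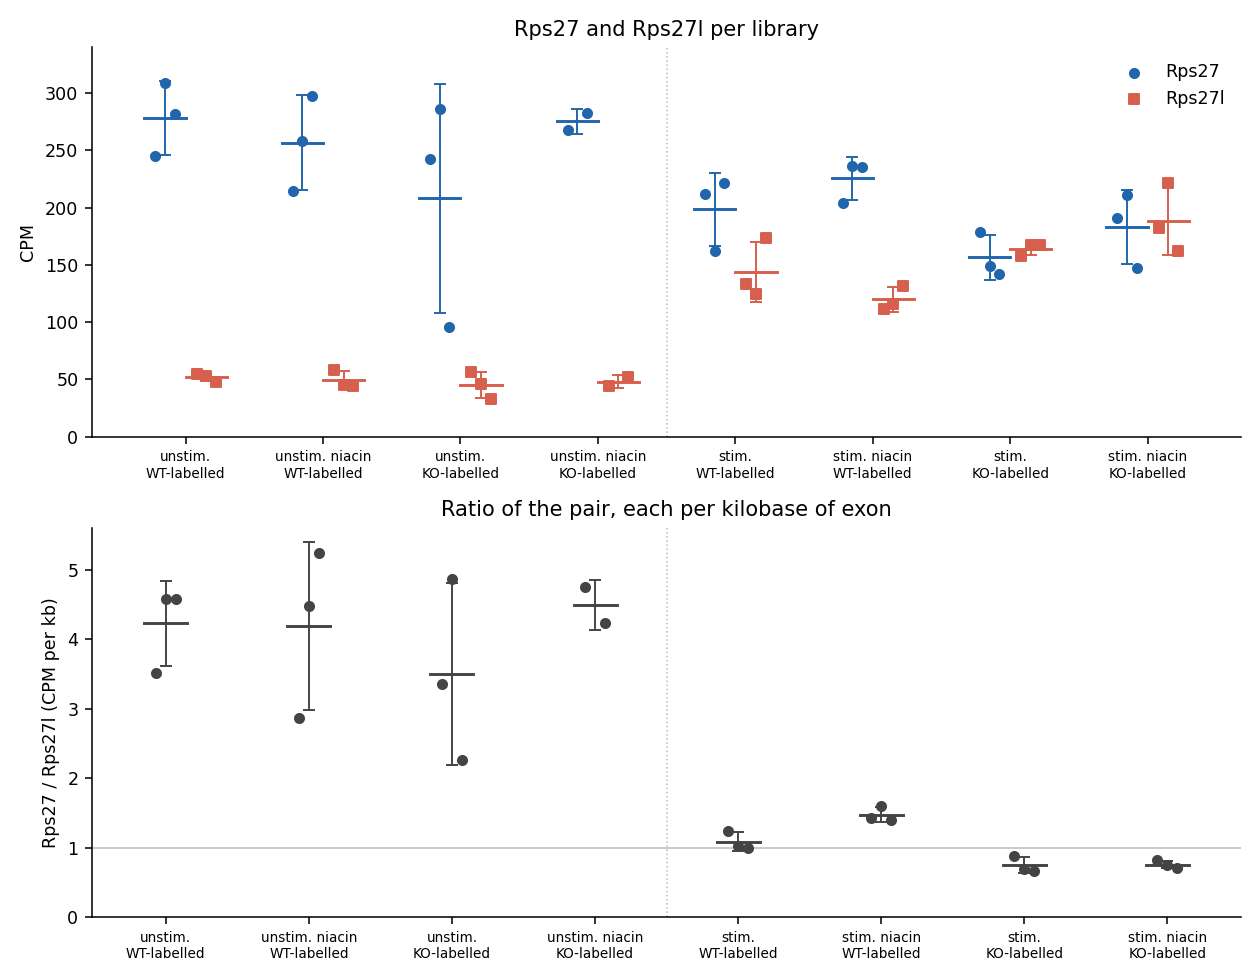
Upper plot: CPM of Rps27 (circles) and Rps27l (squares) in each library of the 8 groups on the x axis; lower plot: their ratio with each gene expressed as CPM per kilobase of exon, the grey line marking a ratio of 1. Points are libraries, lines are means and bars are SD. The ratio lies between 2.27 and 5.24 in unstimulated and between 0.664 and 1.6 in stimulated libraries. For stimulated knockout-labelled libraries, the side of 1 on which it lies depends on the length used.

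The other paralogue members were low. Rpl36al, a paralogue of Rpl36a, had 5.46 to 13.1 CPM in unstimulated and 10.7 to 15.3 CPM in stimulated libraries, the highest unstimulated value being that of library 3 of the knockout-labelled group. It rose by 0.89, 0.83, 0.82 and 1.23 (SE 0.24 to 0.28, adjusted p 0.00533, 0.0071, 0.00784 and 0.00116), and 63.1% of its exon bases lie in exons of another gene. Rpl36a itself rose by 1.05, 0.95, 1.13 and 1.12. Rpl39l was at 0.0359 to 0.678 CPM in unstimulated and 0 to 1.07 CPM in stimulated libraries, and its log2 fold changes of 0.90, 1.37, 0.19 and 0.38 had standard errors of 1.04 to 1.19, so no difference was detectable at this depth. Rpl3l, at no more than 0.309 CPM in any library, and Rpl10l, at 0, were not tested.

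The ribosomal genes outside the naming rule rose in most cases too. Of 10 such genes, 8, 7, 8 and 9 were called higher on stimulation and 0 lower, with medians of 1.10, 0.83, 1.08 and 1.06. Rack1, a scaffold protein on the small subunit, rose by 1.27, 1.6, 1.59 and 1.61 (largest adjusted p 1.87e-07), and Rps27a, which is made as a fusion with ubiquitin, by 1.21, 1.46, 1.02 and 1.25 (largest adjusted p 0.000691). Rplp0, the base of the stalk that recruits elongation factors, rose by 1.26, 1.00, 1.71 and 1.68 (largest adjusted p 0.00121). Fau, made as a fusion of a small-subunit protein with a ubiquitin-like protein, and Rps3a1 were called higher in all 4 (largest adjusted p 0.00171 and 0.0219). The stalk genes Rplp1 and Rplp2 were not called in knockout-labelled cells without niacin, where library 3 was again high: Rplp1 was at 286, 300.2 and 686 CPM unstimulated and 413, 400.3 and 388 CPM stimulated. Rpl7l1, a relative of Rpl7, had log2 fold changes of 0.00, 0.65, 0.18 and 0.63 (adjusted p 0.985, 0.00222, 0.356 and 0.00834), and Rpl22l1, the paralogue of Rpl22, 1.34, 1.41, 0.42 and 1.37 (adjusted p 0.00706, 0.00427, 0.353 and 0.0132).

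Genes known to act beside the ribosomal proteins were taken from lists. The first list held 14 other genes whose messages are known to carry a TOP tract. Among them were the elongation factors Eef1a1 and Eef2 and the poly(A) binding protein Pabpc1. Of these 14, 13, 11, 11 and 14 were called higher and 0 lower, with medians of 0.96, 1.10, 1.00 and 1.04. Of all genes, 23.4% to 26.0% were called higher and 21.7% to 27.5% lower. The promoter table matched 8 of the 14, and 3 of these (37.5%) had a TOP-like start by the measure above. Eef2 had none at its annotated start. Of 13 genes of the mTOR pathway, TOP message binding and Myc, 3, 3, 3 and 5 were called higher and 4, 3, 4 and 2 lower, beside the 23.4% to 26.0% of all genes higher and 21.7% to 27.5% lower given above. Tsc1, which restrains mTOR, fell by 0.69, 0.91, 0.94 and 1.43, and Rptor, a subunit of the mTOR complex that signals to translation, by 0.57, 0.94, 0.60 and 0.91 (largest adjusted p 0.0134 and 0.0374). Larp1 had 0.44, -0.22, 1.04 and 0.92 (adjusted p 0.247, 0.548, 0.00762 and 0.0344), with 369, 357 and 1292 CPM in the unstimulated knockout-labelled libraries, of which library 3 was far the highest. In that list Myc, a transcription factor that drives ribosome production, rose by 1.58, 1.23, 1.92 and 1.65 (largest adjusted p 7.36e-05). Eif4ebp1, a repressor of translation initiation that mTOR inactivates, rose by 4.48, 4.40, 4.79 and 4.46 (largest adjusted p 7.12e-11). Of 7 tested chaperones and importers that handle single ribosomal proteins before assembly, 1, 3, 2 and 3 were called higher and 0, 0, 1 and 0 lower, beside the same shares of all genes. Pdcd2l was the member of that list called higher in all 4, at 0.43, 0.36, 0.60 and 0.65 (largest adjusted p 0.0415).

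In the edgeR fit over all libraries no member was called as changed by niacin, while other fits called some in stimulated wild-type-labelled cells. Against cultures without it, 0 of 74 members were called higher or lower by edgeR in unstimulated wild-type-labelled cells (0% of all genes tested in either direction), unstimulated knockout-labelled cells (0% and 0%), stimulated wild-type-labelled cells (0% and 0%) and stimulated knockout-labelled cells (0.00592% of all genes higher, 1 gene, and 0% lower). At an unadjusted p under 0.05 the members higher and lower numbered 0 and 0, 0 and 2, 15 and 1, and 4 and 0 in that order. The share of all genes at that threshold is not given here, so these counts alone show no shift of the members. DESeq2 called 0 in all 4. Limma voom with sample weights called 27 members higher (3.65% of all genes) and 1, Rpl39, lower (7.18%) in stimulated wild-type-labelled cells and 0 in the other 3. The medians of the members were -0.12, 0.09, 0.21 and 0.15 on the log2 scale, beside 0.00, 0.01, 0.00 and 0.01 for all genes tested, and 6, 52, 58 and 71 of 74 members had a value above 0.

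In stimulated wild-type-labelled cells, where the median was highest, large-subunit members had a median of 0.20 and small-subunit members of 0.22. Rps19 was at 559, 449 and 543 CPM without and 761, 719.6 and 566 CPM with niacin, a log2 fold change of 0.40 (SE 0.13, adjusted p 0.406). Rps26 was at 212, 172 and 222 against 309.9, 272 and 218 CPM, or 0.40 (SE 0.15, adjusted p 0.406). In Rps19 every library with niacin lay above every library without, while in Rps26 library 3 with niacin lay among those without, and in both genes libraries 1 and 2 with niacin were the highest of the 6. Those are the libraries with few mitochondrial counts. Without both, 1 library is left in that group and its spread is taken from the other groups; the median of the members was 0.07 and 0 and 0 members had an unadjusted p under 0.05. With library 3 of that group left out instead, the median was 0.27, beside -0.009 for all genes tested. In that fit 4 members were called higher (among them Rpl8, Rps9 and Rps19), as were 0.227% of all genes. Rpl39 and Rps27l had values on the other side, -0.49 (SE 0.24, adjusted p 0.5) and -0.26 (SE 0.18, adjusted p 0.625).

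Whether niacin changed the response to stimulation was tested as an interaction, the stimulation change with niacin minus that without. No member was called by edgeR in wild-type-labelled cells (0% of all genes tested higher and 0% lower) or in knockout-labelled cells (0% and 0%). At an unadjusted p under 0.05, 17 members were higher and 0 lower with the wild-type label, and 0 and 0 with the knockout label. The share of all genes at that threshold is again not given. DESeq2 called 0 in both, and limma voom 31 higher with the wild-type label (3.58% of all genes) and 0 with the knockout label. Over all genes, DESeq2 gave a median interaction of -0.008 with the wild-type and 0.028 with the knockout label. The median interaction of the members was 0.33 with the wild-type label, with 62 of 74 above 0, and 0.09 with the knockout label, with 45 above 0. With niacin-treated stimulated wild-type-labelled libraries 1 and 2 left out, which again leaves 1 library, the former was 0.16. Among the largest values were those of Rpl13 and Rpl36, at 0.72 and 0.68 (adjusted p 0.665 and 0.66).

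Between the genotype labels, few members passed the test. In unstimulated cells 0 members were called higher (0.0355% of all genes tested) and 0 lower (0.00592%) with the knockout label than with the wild-type label; in stimulated cells 0 were higher (0.0474%) and 0 lower (0.0652%); and in unstimulated cells with niacin 0 were higher (0.0296%) and 0 lower (0.00592%). By edgeR at an unadjusted p under 0.05 the members higher and lower numbered 2 and 4, 0 and 1, and 0 and 0, and DESeq2 and limma voom called 0 in these 3 comparisons. In stimulated cells with niacin 0 were called higher (0.575%) and 1 lower (0.865%), with 3 and 15 at an unadjusted p under 0.05. Shares of all genes at the unadjusted threshold are not given here. The medians of the members were -0.14, -0.13, 0.05 and -0.16 on the log2 scale, beside -0.01, -0.02, -0.01 and -0.02 for all genes tested. Without library 3 of the unstimulated knockout-labelled group the first was -0.05.

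The single call in stimulated cells with niacin was lost without any 1 of 5 of the 6 libraries, which include all 3 knockout-labelled ones. Without libraries 1 and 2 of the wild-type-labelled group, those with few mitochondrial counts, 0 members were called lower, with 1 library left in that group and the spread taken from other groups. Without library 3 of that group 8 were lower (1.81% of all genes) and 1, Rps27l, higher (4.3%). DESeq2 called 1 member higher (Rps27l; 3.02% of all genes) and 7 lower (3.63%), and limma voom 6 higher (11.1%) and 20 lower (9.05%). With number 3 of the unstimulated knockout-labelled libraries out of the fit, though it is in neither group, edgeR called 3 higher (Rps27l among them; 5.42% of all genes) and 13 lower (5.09%). Rps19 was at 761, 719.6 and 566 CPM in wild-type-labelled and 500.1, 553 and 440 CPM in knockout-labelled libraries, and Rps3 at 1834, 1947 and 1566 against 1412, 1397 and 1260 CPM. In both genes the labels did not overlap. Rps19 differed by -0.46 (SE 0.13, adjusted p 0.0773) and Rps3 by -0.39 (SE 0.12, adjusted p 0.0781) on the log2 scale in the edgeR fit over all libraries, and neither was called there.

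Hcar2 lies on chromosome 5 at 123863570 to 123865499 (GRCm38), and 4 members share that chromosome. Rpl6, the nearest, starts 2.66 Mb away and differed between labels by -0.29, 0.04, -0.04 and -0.09 on the log2 scale in the 4 conditions (smallest adjusted p 0.448). Rpl5, 16 Mb away, Rpl21 and Rpl9 were not called by edgeR either (smallest adjusted p 0.483, 0.595 and 0.606). Limma voom called Rpl5 higher with the knockout label in stimulated cells with niacin, at 0.40 (adjusted p 0.017), and the others in no condition. Between Rpl5 and Rpl6 lies Rplp0, which is outside the naming rule, at 115559467 to 115563727. Rplp0 was at 2336, 2108 and 2167 CPM in stimulated wild-type-labelled and 1573, 922 and 959 CPM in knockout-labelled libraries, and with niacin at 3127, 3109 and 2275 and 1564, 1005 and 996 CPM. Library 1 was the highest of the 3 knockout-labelled libraries in both conditions, and still lower than every wild-type-labelled one. With niacin the difference was -1.26 (SE 0.23, adjusted p 0.0105), and it was not called in the other 3 conditions, at -0.67, -0.94 and -1.22 (adjusted p 0.409, 0.173 and 0.225). Reads of Rplp0 can be shared with its processed copies, whose part was not tested here.

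**Figure D5:**
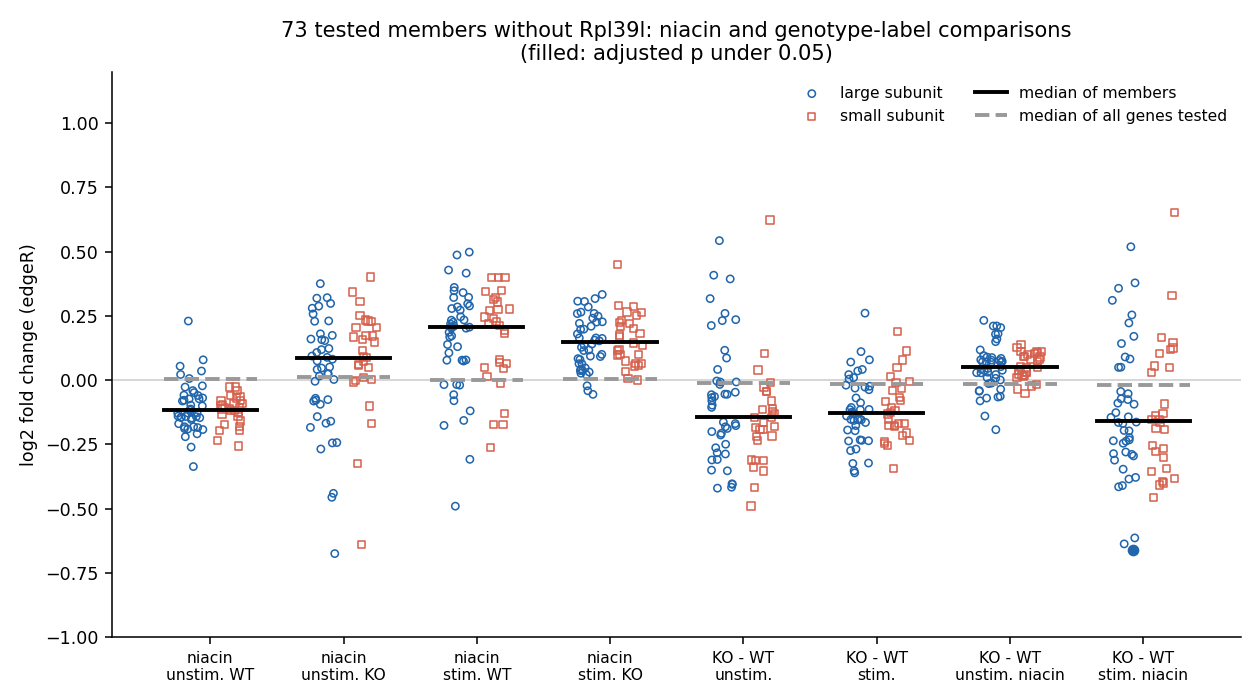
Log2 fold change from edgeR of 73 tested members (Rpl39l, with standard errors over 1, is left out) for niacin against none (4 comparisons on the left) and for the knockout against the wild-type label (4 on the right). Circles are large-subunit and squares small-subunit genes, filled where the adjusted p is under 0.05; solid lines are medians of the members (-0.16 to 0.21) and dashed lines medians of all genes tested, and 1 gene is filled, in stimulated cells with niacin.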

How the data were processed

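RNA-seq was made from 23 libraries of sorted splenic CD4+ T cells in 8 groups. The authors deposited whole-number counts per gene in a single table with exon lengths; per the submitters' processing notes the tools were Trimmomatic 0.38, STAR 2.7.0e and featureCounts 1.6.3, with the builds GRCm38.p5 and mm10. The sources used here do not give how strand and reads with several matches were treated. Gene IDs were named from the GENCODE vM21 annotation. Members and lists were chosen with earlier results of these data known.

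From the counts, edgeR 4.0.16 (R 4.3.3) gave TMM factors, CPM and log2 fold changes in 1 fit over 23 libraries with a mean per group (15 residual degrees of freedom, common coefficient of variation 27.3%), with filterByExpr at a minimum count of 10. Quasi-likelihood F tests were adjusted by Benjamini-Hochberg over 16882 genes at a threshold of 0.05. A library of 13205565 counts is less precise for low genes than the others, which held 20604050 or more. Alternatives were DESeq2 1.42.0, limma 3.58.1 (voom), RLE factors, factors without the members, no filter, a replicate block, fits of compared groups only, members summed with copies, and fits without single libraries or those standing apart; leaving out all 3 of the latter was chosen after seeing the data. Copies and windows were matched with blastn 2.17.0 and Python 3.11.15.

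Genes named by rule were 17 of known role, paralogues, ribosomal genes outside the naming rule, members on the chromosome of Hcar2, up to 5 called members per direction with the largest change per comparison at 5 CPM or more, and the 3 highest and lowest per subunit per kilobase. Rpl13, Rpl30, Rpl36, Rpl37a, Rpl36a, Rps9, Rps10, Rps21, Rpl8 beyond its level, and the genes singled out from the other lists were chosen after their values were seen. Results on some genes are not reported here.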

Additional observations from a re-analysis of the deposited data

How the results depend on the processing

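Under the 11 alternatives beside leaving out single libraries, members called higher on stimulation kept within 1.5 times of 67, 63, 71 and 69, and leaving out 1 library gave 63 to 68, 60 to 66, 69 to 71 and 53 to 69. Where a group was left with 1 library (unstimulated knockout-labelled with niacin, or stimulated wild-type-labelled with niacin without libraries 1 and 2), it was assumed to vary like the other groups. Members called lower on stimulation numbered 1 in place of 0 (Rps27) in wild-type-labelled cells with no filter on low counts, limma voom, compared groups only, library 3 of the unstimulated knockout-labelled group left out, or all 3 libraries that stand apart left out. In knockout-labelled cells the number was 1 with no filter, voom or all 3 left out, and 0 to 1 over single libraries; with niacin it was 1 by DESeq2, with no filter, voom, compared groups only, that library 3 left out, or all 3 left out.

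Niacin called 1 member lower (Rpl13) in unstimulated knockout-labelled cells with no filter, where 1.32% of all genes were lower. In stimulated wild-type-labelled cells it called 27 higher (3.65% of all genes) and 1 lower (7.18%) by voom, and 0 to 4 higher without 1 library. The wild-type-labelled interaction had 31 higher by voom (3.58% of all genes).

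The knockout label called 1 higher (Rps10) in unstimulated cells with no filter, where 2.02% of all genes were higher. In stimulated cells with niacin members higher numbered 1 (Rps27l) by DESeq2, with no filter or with compared groups only, 6 by voom, 0 to 1 without 1 library, and 3 with number 3 of the unstimulated knockout-labelled libraries left out. Members lower numbered 7 by DESeq2, 3 with no filter, 20 by voom, 0 to 8 without 1 library, 13 without that library 3, and 0 with stimulated wild-type-labelled niacin libraries 1 and 2 left out, or without all 3. Of all genes, 3.02%, 1.77%, 11.1% and 5.42% were higher by DESeq2, with no filter, by voom and without that library 3. In the same order 3.63%, 1.98%, 9.05% and 5.09% were lower. With compared groups only, 1.33% of all genes were higher. The cause was not tested.

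With a replicate block, members higher on stimulation numbered 67, 62, 71 and 68 and no other count of members called moved by over 1.5 times. Same-numbered libraries deviated together with correlations of -0.18 to 0.29, so the numbers were not taken as pairs.

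The ratio of large to small subunit per kilobase was 1.418, 1.488, 1.389 and 1.369 in stimulated cells (wild-type label without and with niacin, then knockout label) and 1.274, 1.267 and 1.266 in unstimulated cells (wild-type label without and with niacin, knockout label with niacin), with 1.288, 1.248 and 1.661 in the 3 unstimulated knockout-labelled libraries without niacin. Without the 5 highest members it was 1.215, 1.208, 1.231 and 1.213 in stimulated and 1.063, 1.07, 1.106 and 1.065 in unstimulated cells. At this depth Rpl39l, Rpl3l and Rpl10l are too low for a comparison.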
